A study of Homo sapiens with 6 samples.

Results

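The sites examined here are the BRACHYURY (BRA) peaks around 6 genes that are induced by BMP signalling and damp it or carry it onwards: ID1, ID2, ID3, SMAD6, SMAD7 and BAMBI. A peak was included when its midpoint lay in the gene body or within 50 kb on either side, in hg19 coordinates. This selected 50 of the 54994 peaks deposited in 4 lists. Human embryonic stem cells of the H9 line, an established line, were differentiated for 36 h in a chemically defined medium that contained FGF2 at 20 ng/ml and the PI3 kinase inhibitor LY294002 at 10 μM. FLyA medium also held 100 ng/ml activin A and gave endoderm progenitors, whereas FLyB medium held 10 ng/ml BMP4 and gave mesoderm progenitors. BRA was immunoprecipitated in each medium with an antibody from R&D Systems and with an antibody from Santa Cruz, in 1 library per medium and antibody. The 2 input DNA libraries, 1 per medium, were not analysed here, and the sources used here do not say which of them served as control in peak calling. All the cells therefore belong to 1 line, and lists of the same medium may share a control.

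BMP ligands activate receptors that phosphorylate SMAD1, SMAD5 and SMAD9, whereas activin and NODAL act through SMAD2 and SMAD3. These SMADs enter the nucleus with SMAD4 and switch on genes that include inhibitors of the pathway itself. ID1, ID2 and ID3 encode helix-loop-helix proteins that lack a DNA-binding region and hold other helix-loop-helix factors away from DNA, and they are classical direct targets of BMP signalling. SMAD6 and SMAD7 are inhibitory SMADs that block receptor activation of the other SMADs, SMAD6 mainly in the BMP branch and SMAD7 in both branches. BAMBI is a membrane protein that resembles a receptor without its kinase and dampens signalling. BRA is a T-box transcription factor of the primitive streak. Expression of these genes was not measured in these libraries, so the data say where BRA was called and nothing of transcript levels.

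With the R&D Systems antibody 25864 peaks were called in FLyA and 23687 in FLyB, and with the Santa Cruz antibody 2436 and 3007. Every peak is 400 bp wide and carries no height, fold enrichment or p-value, and the number of reads behind a peak is unknown. Each medium has 2 libraries, made with different antibodies, and lists of such unequal length were not averaged. No test between media was run, since 2 pairs of libraries matched by antibody cannot give an exact two-sided p below 0.5, and counts and positions are given as a description for each antibody. Intervals on shares are exact (Clopper-Pearson) 95% intervals over peaks, which cover counting error only. Gene starts and ends are known here to 1 kb, because they come from the edges of the windows less their 50 kb flanks, and the rounding alone puts distances to them off by up to 0.5 kb. The gene bodies so obtained were 1, 3, 2, 79, 31 and 6 kb long for ID1, ID2, ID3, SMAD6, SMAD7 and BAMBI, against 1.2, 2.4, 1.6, 80.6, 31.1 and 5.4 kb in RefSeq of the newer build GRCh38.p14. For SMAD6 the lengths differ by more than rounding allows, and its distances may be further off. Whether a peak lies in an exon, an intron or a UTR was not analysed here, because the annotation at hand is of another build. The nearest protein-coding genes in the RefSeq order are MCTS2 and COX4I2 for ID1, RNF144A and KIDINS220 for ID2, E2F2 and RPL11 for ID3, LCTL and SMAD3 for SMAD6, CTIF and DYM for SMAD7, and WAC and LYZL1 for BAMBI. A peak in a window may belong to such a neighbour, and this was not tested.

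The ID genes held more R&D Systems peaks in FLyB than in FLyA, and the inhibitor genes did not. ID1 had 3 peaks in FLyA and 6 in FLyB, ID2 had 2 and 4, and ID3 had 2 and 7. SMAD6 had 5 peaks in FLyA and 4 in FLyB, SMAD7 had 5 and 4, and BAMBI had 3 and 2. Over ID1, ID2 and ID3, 17 of 24 R&D Systems peaks came from FLyB (70.8%, 95% interval 48.9 to 87.4%), against 47.8% of all R&D Systems peaks. Over SMAD6, SMAD7 and BAMBI, 10 of 23 came from FLyB (43.5%, 23.2 to 65.5%). All 3 ID genes had more peaks in FLyB, by numbers that moved with the rules. With flanks of 20 kb ID1 had 2 peaks in FLyA and 3 in FLyB, and ID3 had 1 and 4. When peaks of a list at most 1 kb apart were merged, ID2 had 2 in each medium, ID3 had 2 and 5, and the ID genes together had 7 in FLyA and 13 in FLyB. All 3 inhibitor genes had 1 peak fewer in FLyB than in FLyA. This difference is small, and with flanks of 100 kb it turned to 17 FLyA and 20 FLyB peaks. SMAD7 then had 6 and 11, and SMAD6 had equal numbers with flanks of 20 kb (3 and 3) and of 100 kb (7 and 7). With the Santa Cruz antibody, SMAD7 had 1 peak in each medium, SMAD6 had 1 in FLyA, and the other 4 genes had none in either medium.

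**Figure D1:**
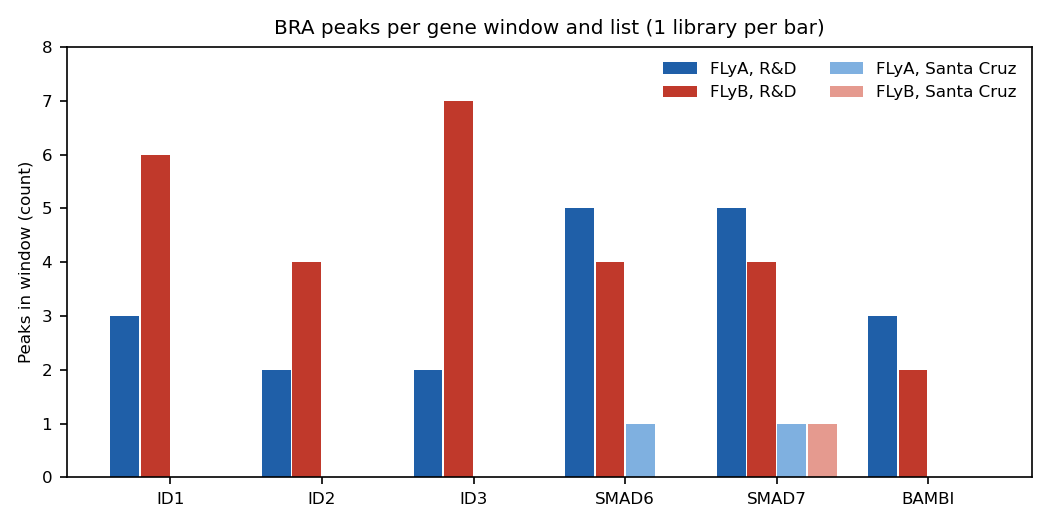
Peaks counted in each gene window, with 1 bar per list and 1 library behind each bar; dark blue is FLyA and red is FLyB with the R&D Systems antibody, and the pale bars are the Santa Cruz lists. ID1, ID2 and ID3 have taller FLyB bars (6, 4 and 7 against 3, 2 and 2), whereas SMAD6, SMAD7 and BAMBI have 1 peak fewer in FLyB, a direction that turns for SMAD7 with flanks of 100 kb and is lost for SMAD6 with flanks of 20 or 100 kb.

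The counts were set beside the whole genome by dividing chromosomes 1 to 22 and X into tiles of the length of each window, which ignores where genes lie. The FLyB counts at ID3 and ID1 were the rarest. These shares hold for flanks of 50 kb and peaks as deposited, and the excess of ID1 was 1 with flanks of 20 kb and that of ID2 was 0 after merging within 1 kb. Among tiles as long as the ID3 window, 0.829% held at least 7 FLyB peaks and 21.8% held at least 2 FLyA peaks, and 0.498% had an excess of FLyB over FLyA peaks of 5 or more. For ID1, 1.37% of tiles held at least 6 FLyB peaks, 9.42% held at least 3 FLyA peaks, and 2.65% had an excess of 3 or more. For ID2 the shares were 4.82% for at least 4 FLyB peaks, 22.1% for at least 2 FLyA peaks and 6.99% for an excess of 2 or more. With flanks of 50 kb the inhibitor genes stood further out in FLyA than in FLyB, by 1 peak at each gene. With flanks of 100 kb SMAD6 had 7 peaks in each medium, and SMAD7 had 6 in FLyA and 11 in FLyB. The tile shares that follow are for flanks of 50 kb. At least 5 FLyA peaks were found in 6.56% of tiles as long as the SMAD6 window and in 3.40% of those as long as the SMAD7 window, whereas at least 4 FLyB peaks were found in 11.6% and 7.27%. For BAMBI, 10.1% of tiles held at least 3 FLyA peaks and 19.6% at least 2 FLyB peaks. A difference of 1 or more towards FLyA, as at these 3 genes, was common and occurred in 35.4%, 30.7% and 27.8% of the tiles. Many tiles hold no peak at all. Among tiles with at least 1 R&D Systems peak, the share with the FLyB excess of ID3 was 0.849%, that of ID1 4.52% and that of ID2 11.8%.

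The position of peaks relative to the gene start is given here without the same share over the whole lists, which needs gene starts in hg19 and was not analysed here. With the R&D Systems antibody, 9 of 20 peaks in FLyA and 14 of 27 in FLyB lay within 5 kb of the start, with at least 1 from each list at each gene. In FLyA, 11 of the 20 lay upstream of the start, 3 inside the gene body and 6 beyond its end, and in FLyB the numbers were 17, 3 and 7. None of the ID peaks had its midpoint inside the gene body, and these bodies are at most 3 kb long. At 3 genes, ID2, SMAD6 and BAMBI, a peak reached to within 0.5 kb of the rounded start, which for SMAD6 is the least certain. The promoters of these 3 genes are shown for that reason, and not because a peak is known to cover them. At ID2 the nearest peak ended at 8821881, short of the rounded start at 8822000. At BAMBI it ended at 28965846, short of 28966000. The printed bases of these 2 genes may thus lie largely or wholly outside the peaks. Each line gives the 250 bases before the RefSeq start, read 5′ to 3′ along the gene, in a newer build (GRCh38.p14) than the peaks, so the lines are not the sequences of the peaks themselves. Capitals mark matches on either strand to GGTGTG (the core of the T-box motif), to GGCGCC or CAGACA (letters found in SMAD sites) and to GTCTAGAC (a palindromic SMAD site).
ID2 (GRCh38.p14, chr2:8681806-8682055, + strand): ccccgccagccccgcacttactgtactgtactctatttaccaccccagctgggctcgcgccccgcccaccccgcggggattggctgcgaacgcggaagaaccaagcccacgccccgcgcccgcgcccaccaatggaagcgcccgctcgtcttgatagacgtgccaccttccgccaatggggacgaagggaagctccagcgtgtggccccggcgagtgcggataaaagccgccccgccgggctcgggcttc
SMAD6 (GRCh38.p14, chr15:66701986-66702235, + strand): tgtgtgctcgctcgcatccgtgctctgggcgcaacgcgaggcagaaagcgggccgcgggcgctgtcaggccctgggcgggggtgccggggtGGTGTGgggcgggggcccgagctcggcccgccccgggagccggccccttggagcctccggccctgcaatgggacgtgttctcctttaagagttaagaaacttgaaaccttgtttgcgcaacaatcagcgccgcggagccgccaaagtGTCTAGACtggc
BAMBI (GRCh38.p14, chr10:28677271-28677520, + strand): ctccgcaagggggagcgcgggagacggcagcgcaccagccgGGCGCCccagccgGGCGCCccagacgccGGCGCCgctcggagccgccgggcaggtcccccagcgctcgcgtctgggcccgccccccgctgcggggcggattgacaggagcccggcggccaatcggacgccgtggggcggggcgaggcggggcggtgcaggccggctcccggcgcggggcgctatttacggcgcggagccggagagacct
The SMAD6 promoter holds GGTGTG 1 time, beginning 159 bases before the start, and GTCTAGAC 1 time, beginning 12 bases before it. The BAMBI promoter holds GGCGCC 3 times, beginning 209, 196 and 181 bases before the start, and the ID2 promoter holds none of these letters. Of all 35116 RefSeq promoters of the same length, 14.2% hold GGTGTG, 16.4% GGCGCC, 13.6% CAGACA and 0.182% GTCTAGAC. The longer T-box motif GGTGTGA, which contains GGTGTG, is held by 2.76% of promoters and by none of these 6 genes. Among the promoters not shown, those of ID1 and ID3 hold none of the letters, and of the 3 SMAD7 promoters in RefSeq the second holds GGTGTG 1 time and the others none. These matches are a description of letters only, and none was placed in a peak.

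**Figure D2:**
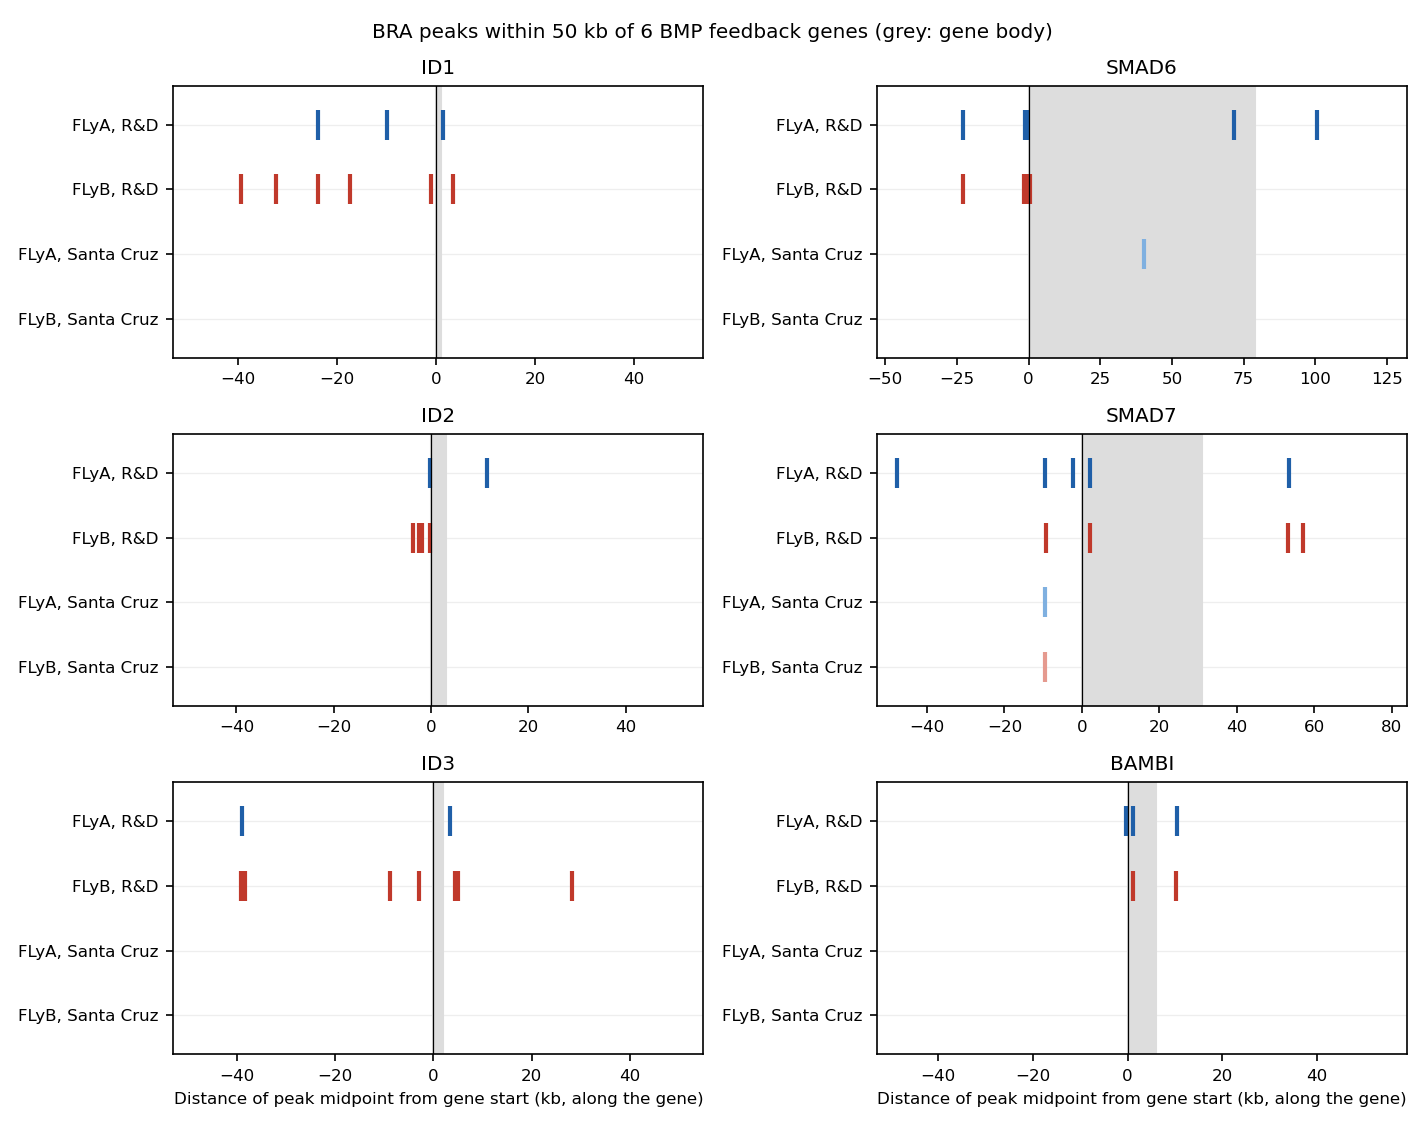
Midpoints of BRA peaks in the 4 lists, drawn in kb from the start of each gene along its direction of transcription; each tick is 1 peak of 400 bp and the grey band is the gene body. Ticks from both R&D Systems lists stand near the start of each gene, and at SMAD7 all 4 lists share a tick 9.3 to 9.4 kb upstream.

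ID1 had its FLyB peaks spread over the upstream flank, 39.4, 32.2, 23.7, 17.4 and 0.9 kb before the start, and a sixth lay 3.5 kb after it. Its FLyA peaks lay 23.7 and 9.8 kb before the start and 1.4 kb after it. The media met at 1 site only, chr20:30169120-30169528, where the midpoints were 9 bp apart. Near the gene itself the media alternated. The FLyB peaks at chr20:30191893-30192292 and chr20:30196296-30196695 flanked the FLyA peak at chr20:30194205-30194604, with midpoints 2312 and 2091 bp away from it.

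ID2 had all 4 of its FLyB peaks in a run of 3.91 kb that ended at the gene start (chr2:8817970-8821881). They lay 3.8, 2.5, 1.9 and 0.3 kb before the start. The FLyA list shared the last of these, chr2:8821477-8821881, with midpoints 5 bp apart, which was the closest match between the media at any of the 6 genes. Its other FLyA peak lay 11.6 kb after the start, 8.6 kb beyond the end of the gene. Each of the ID2 FLyB peaks had 3 other FLyB peaks within 5 kb, as was true of 1.92% of all FLyB peaks. In FLyA, where 0.777% of all peaks had 3 such neighbours, no peak at any of the 6 genes had them. The 4 ID2 peaks are a single run in which each is a neighbour of the others. The share of 1.92% is thus per peak and is not the rarity of such a run. When FLyB peaks at most 1 kb apart were merged, 2 remained at ID2.

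ID3 had the most FLyB peaks, 7, and the fewest shared with FLyA for their number. The FLyB peaks lay 39.2, 38.3, 8.8 and 2.9 kb before the start and 4.3, 4.9 and 28.3 kb after it. The FLyA peaks lay 39.0 kb before and 3.4 kb after. They met at chr1:23924797-23925378, with midpoints 182 bp apart. Downstream of the gene, the FLyA peak at chr1:23882353-23882752 lay beside a pair of FLyB peaks in a run of 1.90 kb, yet its midpoint was 876 bp from the nearer of them and the peaks did not overlap.

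SMAD6 carried peaks of both media around its start. In a run of 2.53 kb, chr15:66993087-66995616, 2 FLyA and 3 FLyB peaks were called. The site at chr15:66994381-66994809, 0.4 kb before the start, was shared with midpoints 29 bp apart. The site just upstream, chr15:66993087-66993852, was shared only at the edges, with midpoints 366 bp apart. The third FLyB peak lay 0.4 kb inside the gene, with no FLyA peak on it. A further shared site lay 22.9 kb upstream in FLyA and 22.8 kb in FLyB, with midpoints 58 bp apart. The 2 FLyA peaks without a FLyB partner were remote from it. They lay 71.8 kb inside the gene and 100.7 kb from the start, beyond the gene end, and the nearest FLyB peaks were 71.4 and 100 kb away. The Santa Cruz FLyA peak at chr15:67035032-67035431, 40.2 kb inside the gene, overlapped no other peak, and the nearest R&D Systems peaks were 31.6 kb away in FLyA and 39.8 kb away in FLyB.

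SMAD7 held the single site of the 6 genes that was called in all 4 lists. It lies 9.3 to 9.4 kb upstream of the gene start, at chr18:46486151-46486577, and the 4 midpoints spanned 27 bp. Of the 43081 separate sites in the 4 lists, 226 were called in all 4 (0.525%). Another shared site lay 2.0 kb inside the gene in FLyA and 2.1 kb in FLyB, with midpoints 32 bp apart, and the last lay beyond the gene end, 53.4 and 53.2 kb from the start, with midpoints 222 bp apart. FLyA alone had peaks 2.2 and 47.8 kb before the start. FLyB alone had a peak 57.1 kb after the start, 3694 bp from the nearest FLyA peak.

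BAMBI had no peak of its own in FLyB. Both FLyB peaks overlapped FLyA peaks, 1.1 kb inside the gene with midpoints 17 bp apart, and 10.3 kb (FLyB) and 10.4 kb (FLyA) from the start, beyond the gene end, with midpoints 88 bp apart. The third FLyA peak, chr10:28965447-28965846, lay 0.4 kb before the start and had no FLyB peak on it. The nearest FLyB midpoint was 1457 bp away.

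The comparison of the media asks whether BRA occupies the same sites in both kinds of progenitor, and at these genes the shared counts of the ID genes and of the inhibitor genes lay apart in FLyB. Of the FLyB peaks, 11 of 27 overlapped a FLyA peak (40.7%, 95% interval 22.4 to 61.2%), against 36.1% of the whole FLyB list. At ID1, ID2 and ID3 this was 3 of 17 (17.6%, 3.80 to 43.4%), which was 1 peak for each gene. At SMAD6, SMAD7 and BAMBI it was 8 of 10 (80.0%, 44.4 to 97.5%). The shared peaks formed 11 pairs, each of 1 FLyA and 1 FLyB peak. The ID genes had 7 FLyA peaks for 17 FLyB peaks, so their FLyB share was limited by the counts. The inhibitor genes had 13 FLyA peaks for 10 FLyB peaks. The difference in share is therefore not separate from the difference in counts given above. The FLyB shares of both groups moved with the rules for windows and overlap. With flanks of 100 kb they were 5 of 22 (22.7%) and 10 of 20 (50%), with flanks of 20 kb they were 1 of 11 (9.09%) and 6 of 7 (85.7%), and with a gap of up to 500 bp allowed they were 5 of 17 (29.4%) and 9 of 10 (90.0%). The genes were grouped with their values known, and neighbouring peaks are not independent as the intervals assume, so this difference was described and not tested. Of the FLyA peaks, 11 of 20 overlapped a FLyB peak (55.0%, 31.5 to 76.9%), against 33.0% of the whole FLyA list. This was 3 of 7 at the ID genes (42.9%, 9.90 to 81.6%) and 8 of 13 at the inhibitor genes (61.5%, 31.6 to 86.1%), and with flanks of 20 kb it was 1 of 5 (20%) and 6 of 9 (66.7%). Each of the 6 windows held at least 1 site called in both media, as did 20.8%, 21.0%, 20.7%, 32.1%, 25.5% and 21.6% of tiles as long as the windows of ID1, ID2, ID3, SMAD6, SMAD7 and BAMBI. Midpoints in the 11 shared pairs were a median of 32.0 bp apart (5 to 366 bp), against 38.0 bp over all shared pairs.

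**Figure D3:**
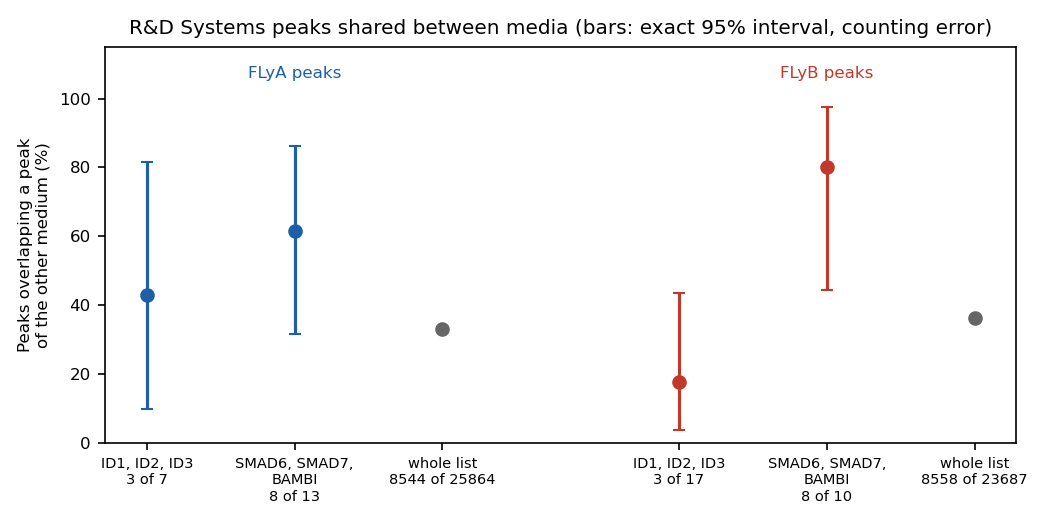
Share of R&D Systems peaks that overlap a peak of the other medium by at least 1 bp, for FLyA peaks (left) and FLyB peaks (right); points are shares in percent and bars are exact 95% intervals that cover counting error only. FLyB peaks at ID1, ID2 and ID3 were shared in 17.6% of cases and those at SMAD6, SMAD7 and BAMBI in 80.0%, on either side of the 36.1% of the whole list, and with flanks of 100 kb these became 22.7% and 50%. The ID genes had 7 FLyA peaks for 17 FLyB peaks, which limits their FLyB share.

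Peaks called in 1 medium only were compared by their distance to the nearest peak of the other medium. In FLyB, 16 peaks were free of any overlap with FLyA, and 13 of them had a FLyA peak within 10 kb (81.2%, 54.4 to 96.0%), against 31.1% of all such FLyB peaks. At the ID genes these were 11 of 14, and the median distance over the 14 was 2.91 kb (0.695 to 24.8 kb). Several of these FLyB peaks were measured to the same FLyA peak, among them all 3 at ID2. They are not independent, as the interval assumes. In FLyA, 9 peaks were free of any overlap with FLyB, and 5 of them had a FLyB peak within 10 kb (55.6%, 21.2 to 86.3%), against 23.7% of all such FLyA peaks. These were 3 of 4 at the ID genes, with a median distance of 4.84 kb, and 2 of 5 at the inhibitor genes, with a median of 18.9 kb (1.46 to 100 kb). The FLyB-only peaks at the inhibitor genes were 2, both within 10 kb. The whole lists are not limited to the surroundings of genes, and whether the nearness belongs to these genes or to gene-rich regions was not tested.

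**Figure D4:**
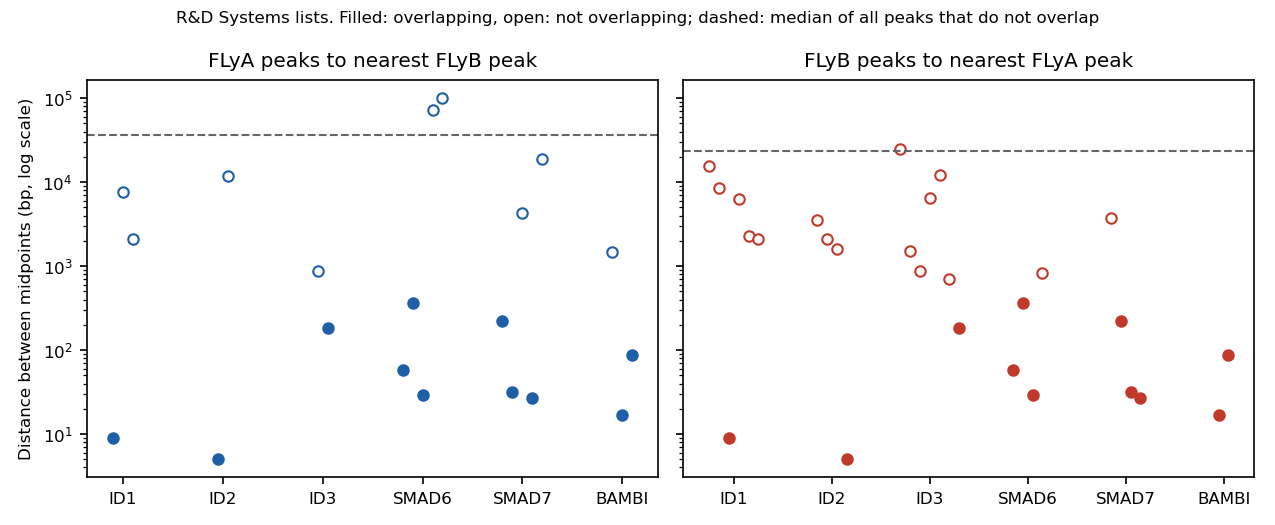
Distance in bp, on a log scale, from the midpoint of each R&D Systems peak to the nearest midpoint of the other medium, by gene; filled points overlap, open points do not, and the dashed line is the median of all non-overlapping peaks of the list (36.6 kb in FLyA and 23.6 kb in FLyB). Most open points lie below the dashed line, and the exceptions are 2 FLyA peaks at SMAD6 and 1 FLyB peak at ID3.

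The antibodies met at the SMAD7 site only. Of the R&D Systems peaks, 1 of 20 in FLyA (5.0%, 0.127 to 24.9%) overlapped a Santa Cruz peak of the same medium, against 3.02% of the whole list, and 1 of 27 in FLyB (3.70%, 0.0937 to 19%), against 10.0%. Counting Santa Cruz peaks of either medium, the numbers were again 1 of 20 and 1 of 27, against 7.16% and 11.6% of the whole lists. The higher FLyB count at the ID genes therefore rests on the R&D Systems antibody alone. The nearest Santa Cruz peaks lay 901 kb from ID1 in both media, 285 and 97.8 kb from ID2 in FLyA and FLyB, 501 and 1084 kb from ID3, and 651 and 233 kb from BAMBI. The Santa Cruz lists are short, and their track lines name a MACS threshold of 1e-12, while none is named for the R&D Systems lists. A missing Santa Cruz peak is thus not evidence of absent binding. In all, the 50 peaks formed 37 separate sites, of which 16 were called in FLyB only with R&D Systems, 9 in FLyA only with R&D Systems, 1 in FLyA only with Santa Cruz, 10 in both media with R&D Systems and 1 in all 4 lists. The sites called in 2 or more lists were 11 of 37, against 23.2% of all sites.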

How the data were processed

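BRA ChIP-seq in FLyA and FLyB progenitors was analysed from 4 peak lists, 1 library per medium and antibody. The submitters' processing notes name hg19 and Bowtie 0.12.7, and the methods name MACS. The lists deposited by the authors hold a chromosome, a start and an end only, with no score. Depth per library, other aligner and caller settings and the control used are not given in the sources used here. No list could be made stricter.

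Member peaks had their midpoint in the gene body or 50 kb either side. Members, gene groups and lists were chosen with earlier results of these data known. All 6 genes are named with all their peaks. An overlap of 1 bp or more made a pair of peaks shared. Counts were made in Python 3.11.15 (SciPy 1.17.1, NumPy 2.4.6), checked with bedtools 2.31.1 and tested on simulated data. Figures used matplotlib 3.10.9. Coordinates are counted from 1. Gene edges came from the windows, since the RefSeq tables are of GRCh38.p14. They gave strand, gene length, neighbours and promoters, all 6 genes matching by symbol. Motifs in peaks and distances to annotated starts had been planned, and promoter motifs and distances to the window-derived edges took their place. The promoter search was chosen after the files were seen. Neighbouring genes are named by position alone. No test between media was run, for the reason given with the counts. Alternatives covered flank, overlap rule, antibody and merging.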

Additional observations from a re-analysis of the deposited data

How the results depend on the processing

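Widening the flanks to 100 kb gave 42 R&D Systems FLyB peaks and 4 Santa Cruz FLyB peaks. At SMAD6, SMAD7 and BAMBI together it turned the FLyB minus FLyA difference of R&D Systems peaks from -3 to 3, and at SMAD7 alone from -1 to 5. SMAD6 alone had equal numbers in both media with flanks of either 20 or 100 kb. Flanks of 20 kb gave a difference of -2 over these 3 genes, and merging peaks of a list at most 1 kb apart gave -4. At the ID genes the difference was 10 as reported, 6 with flanks of 20 kb, 12 with flanks of 100 kb and 6 with peaks merged within 1 kb. The direction at the ID genes together held in all these settings, although ID2 alone came to 2 peaks in each medium when merged. Without ID3, 66.7% of ID peaks came from FLyB, and without ID1 73.3%. In the Santa Cruz lists alone, the shared FLyB share was 100%, from 1 peak. Requiring 200 bp of overlap, allowing a gap of 500 bp or joining the antibodies gave shared fractions of 45.0 to 60.0% in FLyA and 33.3 to 51.9% in FLyB. The ranges by gene group cover the 200 bp and 500 bp rules and flanks of 20 or 100 kb, but not the joined antibodies. The shared part of FLyB peaks ranged from 9.09 to 29.4% at the ID genes and from 50% to 90.0% at the inhibitor genes. The lower ends came with flanks of 20 kb and 100 kb, respectively. For FLyA peaks the ranges were 20.0 to 57.1% and 46.2 to 66.7%, and under all of these rules but flanks of 20 kb the groups lay close.

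The shares by gene group, the leaving out of genes, the merging within 1 kb and the differences between media were chosen after seeing the data. Peak distances from annotated starts, motifs in peaks, other BMP pathway genes and a stricter threshold were not run, for want of a genome or annotation of the build and of scores. No paired test was run, since 2 pairs matched by antibody cannot give an exact two-sided p below 0.5, and the media are set side by side within each antibody. With no read depth in the lists, the absence of a peak sets no limit on binding.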

Other observations

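Between 50 and 100 kb from the gene bodies, outside the windows, lay 7 further FLyA and 15 further FLyB peaks of the R&D Systems lists. SMAD7 had 7 of these FLyB peaks and 1 of the FLyA peaks. Of the SMAD7 peaks, 6 of the FLyB peaks lay beyond the gene end, on the side of CTIF, between 59.1 and 89.8 kb from it. The nearest, chr18:46386665-46387064, was overlapped by the FLyA R&D Systems list and by the Santa Cruz FLyB list.

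ID2 had a site 97.5 to 97.8 kb upstream of its start, at chr2:8724046-8724653, that both R&D Systems lists and the Santa Cruz FLyB list called. SMAD6 had 3 FLyB peaks 69.5, 71.4 and 79.8 kb upstream, the last of them overlapped by a Santa Cruz FLyB peak. Nearest to the limit of the rule, the FLyA peak at SMAD7 47.8 kb upstream was included, and the ID1 FLyA peak 57.8 kb beyond the gene end was not.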
